A study of Homo sapiens with 6 samples.

Results

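EGR1, EGR3, NR4A1 and DUSP5 are immediate early genes, and all 4 were among the 1877 genes of the table that the authors deposited for a knockdown of RNF5. They were found by gene symbol, and each symbol matched 1 row. The libraries came from LP-1, a human myeloma cell line (a tumour of plasma cells) grown in RPMI-1640 medium with serum. RNF5, which encodes a membrane-anchored ubiquitin ligase, was depleted by short hairpin RNA in the cells of 3 libraries, and the other 3 were from cells that received a non-target control. The study's title links RNF5 to the co-chaperone DNAJA1, to mitochondria and to the drug selinexor. The sources used here do not give the number of hairpins or the time of harvest. They do not say either whether the libraries of a group came from separate cultures, so p-values measure only the spread between these libraries.

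Immediate early genes are switched on within minutes of a growth factor, antigen receptor or stress signal, from transcription factors already in the cell. The ERK branch of MAP kinase signalling drives many of them through serum response factor, which binds CArG boxes, and CREB acts through TGACG elements. EGR1 and EGR3 encode zinc finger transcription factors that bind GC-rich sites. NR4A1 encodes the orphan nuclear receptor NUR77, which antigen receptor signals induce in lymphocytes. DUSP5 encodes a nuclear phosphatase that inactivates ERK and is itself induced by ERK, a feedback brake on the same pathway.

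Upstream sequences are shown for EGR1 and NR4A1 because the RefSeq promoter table (GRCh38.p14) matched only these 2 of the 4 genes, NR4A1 with 2 start sites. EGR1 had the highest ratio of knockdown to control among listed genes with both means above 0. NR4A1 was the only member whose groups overlapped. Each line gives the 250 bases before a start, 5′ to 3′ on the plus strand, with CArG boxes and the CREB element TGACGT, on either strand, in capitals. The EGR1 window is chr5:138465229-138465478. The NR4A1 windows are chr12:52022582-52022831 and chr12:52037465-52037714.
EGR1: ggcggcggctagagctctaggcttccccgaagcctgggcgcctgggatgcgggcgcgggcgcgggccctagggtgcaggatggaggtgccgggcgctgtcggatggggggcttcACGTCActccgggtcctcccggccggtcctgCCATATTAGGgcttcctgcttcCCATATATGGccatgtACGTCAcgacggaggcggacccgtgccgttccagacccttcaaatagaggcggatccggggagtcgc
NR4A1 start 1: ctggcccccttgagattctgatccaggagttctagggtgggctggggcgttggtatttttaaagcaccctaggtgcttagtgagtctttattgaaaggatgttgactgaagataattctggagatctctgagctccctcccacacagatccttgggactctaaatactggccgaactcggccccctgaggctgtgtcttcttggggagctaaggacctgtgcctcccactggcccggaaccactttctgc
NR4A1 start 2: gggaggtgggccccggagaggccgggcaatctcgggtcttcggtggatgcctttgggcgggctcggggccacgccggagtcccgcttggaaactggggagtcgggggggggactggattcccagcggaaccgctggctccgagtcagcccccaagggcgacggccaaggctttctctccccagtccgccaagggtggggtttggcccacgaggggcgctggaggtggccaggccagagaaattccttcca
The EGR1 window held 2 CArG boxes, CCATATTAGG from 105 to 96 bases and CCATATATGG from 83 to 74 bases before the start. Of 35116 windows of this length in the RefSeq table, 407 (1.16%) held a CArG box and 11 (0.0313%) held at least 2. TGACGT or its complement stood in the EGR1 window 2 times, on either side of the CArG pair, and was found in 7.10% of all windows. The EGR site GCGNGGGCG, searched on both strands, occurred there 1 time as GCGCGGGCG and in 8.41% of all windows. The ETS core CCGGAA occurred 1 time in the first NR4A1 window and in 14.5% of all windows. Neither NR4A1 window held any of the other 3 motifs. Any other start of NR4A1 was not searched, so this holds for these 2 windows and not for the gene as a whole. These are matches of letters and say nothing about which factors were bound.

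RNF5 was lower in every knockdown library, at 95.40, 81.35 and 88.44, against 1594.70, 1649.43 and 1248.30 in the control libraries. The values are a normalized abundance of unstated scale, so levels are compared between libraries and not between genes, and the depth of the libraries is unknown. The values of the listed genes summed to between 116843 and 122079 in knockdown libraries and between 90825 and 93975 in control libraries. The authors had selected every gene of the table as changed in these libraries. Of the 1290 genes tested here with limma, 97.7% passed an adjusted p under 0.05 (55.7% higher and 42.0% lower), and in 93.2% of all listed genes the groups did not overlap (47.7% with the knockdown higher). A pass or a separation of the groups is therefore what nearly any gene of the table shows. Of the 4 members, 3 were tested under the filter on low values (at least 1 in 3 libraries), EGR1 passed as higher, DUSP5 passed as lower and NR4A1 did not pass. EGR3 was below that filter.

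EGR1 (ENSG00000120738) was near 0 in the control and present in every knockdown library. Its abundance was 1.59, 2.12 and 1.77 in knockdown libraries 1, 2 and 3, against 0.05, 0.04 and 0.02 in control libraries 1, 2 and 3. The lowest knockdown value stood far above the highest control value. The mean was 1.83 ± 0.270 in the knockdown and 0.0367 ± 0.0153 in the control (SD, n = 3 each), a ratio of 49.8. No other listed gene with both means above 0 had a higher ratio, and 56 genes had a mean of 0 in one group. The deposited values have 2 decimals, and rounding of the library values lets the ratio lie between 43.7 and 57.8. On the log2(value + 1) scale, which understates low genes, EGR1 rose by a log2 fold change of 1.44 (SE 0.12, limma adjusted p = 2.56e-06). With a pseudocount of 0.1 in place of 1 the log2 fold change was 3.81. EGR1 reached the filter through its knockdown libraries alone, so a gene with its values could hardly have failed the test. It was 1 of 9 listed genes with a control mean under 0.1 and a knockdown mean of at least 1.

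EGR3 (ENSG00000179388), a paralog of EGR1, was also near 0 in the control and higher in every knockdown library. Its abundance was 0.48, 0.78 and 0.58 in knockdown libraries 1, 2 and 3. In the control it was listed at 0 in library 1 and stood at 0.13 and 0.03 in libraries 2 and 3. The lowest knockdown value was above the highest control value. The mean was 0.613 ± 0.153 in the knockdown and 0.0533 ± 0.0681 in the control (SD, n = 3 each), a ratio of 11.5 that rounding places between 10.4 and 12.4. In a fit with no filter on low values, in which 95.2% of all 1877 genes passed, 48.2% as higher, EGR3 rose by a log2 fold change of 0.61 (SE 0.09, limma adjusted p = 0.000507).

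NR4A1 (ENSG00000123358) did not separate the groups. Its abundance was 2.05, 1.36 and 1.72 in knockdown libraries 1, 2 and 3, against 1.39, 1.07 and 1.36 in control libraries 1, 2 and 3. Knockdown library 2 was level with control library 3 and below control library 1, while the other knockdown libraries were above every control library. The mean was 1.71 ± 0.345 in the knockdown and 1.27 ± 0.177 in the control (SD, n = 3 each), a ratio of 1.34. The log2 fold change was 0.25 with a 95% interval from -0.10 to 0.60 (limma adjusted p = 0.147), and NR4A1 was 1 of 30 tested genes that did not pass. That interval includes no change and does not show that the levels were equal.

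DUSP5 (ENSG00000138166) went the other way. Its abundance was 2.86, 3.31 and 3.0 in knockdown libraries 1, 2 and 3, against 7.26, 7.47 and 4.53 in control libraries 1, 2 and 3. The groups did not overlap, and control library 3 stood well below the other 2 control libraries. The mean was 3.06 ± 0.230 in the knockdown and 6.42 ± 1.64 in the control (SD, n = 3 each), so 47.6% of the control mean was left. DUSP5 fell by 0.85 on the log2(value + 1) scale (SE 0.22, limma adjusted p = 0.00261). Control library 3 was the lowest control in 510 of the 720 genes whose mean reached 5 in either group, and without it the log2 fold change of DUSP5 was -1.05. In bulk RNA, fewer cells with a transcript and less transcript per cell cannot be told apart, here and for the other genes.

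**Figure D1:**
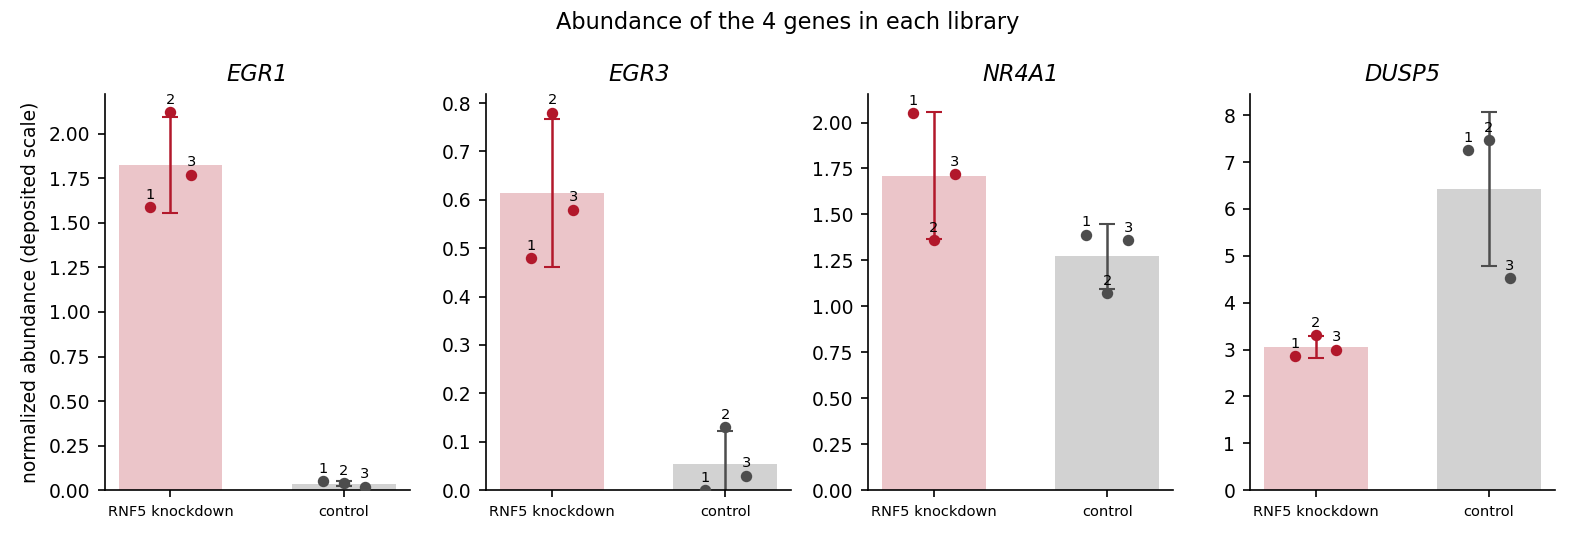
Normalized abundance of EGR1, EGR3, NR4A1 and DUSP5 on the deposited scale (vertical axes, one per gene, from 0), with RNF5 knockdown libraries on the left and control libraries on the right; bars are means of 3 libraries, error bars SD (clipped at 0 for EGR3) and numbered points single libraries. EGR1 and EGR3 were near 0 in all control libraries, NR4A1 overlapped and DUSP5 was lower in every knockdown library.

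An exact 2-sided permutation test on the group means gave p = 0.1 for EGR1, EGR3 and DUSP5, the smallest value that 3 against 3 libraries allow, and p = 0.3 for NR4A1. Within the knockdown group, library 2 was the highest and library 1 the lowest for EGR1, EGR3 and DUSP5, while NR4A1 had the reverse order. Among those 720 genes, knockdown library 2 was the highest of its group in 343 and library 1 the lowest in 398. Within the control group the 4 genes shared no order.

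The change in the authors' deposited table and the ratio of the library means differed by gene. For EGR1 the authors' deposited table gave a log2 fold change of 5.50, the fourth highest of all genes, against 5.64 from the library means. DUSP5 stood at -1.22 in the authors' deposited table and at -1.07 from the library means. EGR3 stood at 4.59 in the authors' deposited table (adjusted p = 3.52e-05) but at 3.52 from the library means. NR4A1 stood at 1.11 in the authors' deposited table (adjusted p = 0.0106) but at 0.43 from the library means. Over the 1821 genes with both means above 0, the log2 ratio of means exceeded the value of the authors' deposited table by a median of 0.168, with a 5th percentile of -0.248. The differences of 0.13 for EGR1 and 0.15 for DUSP5 lay near that median. Those of -1.07 for EGR3 and -0.68 for NR4A1 lay far below it, with 7 and 25 genes lower. Among the 927 genes with both means of at least 1, only 4 had a lower difference than NR4A1. Of all listed genes, 268 had an absolute log2 ratio of means under 1, and 5 had a smaller one than NR4A1. For EGR3, rounding lets the ratio of means reach 12.4, against a deposited ratio of 24.2. The library values in the table thus do not give the deposited changes of EGR3 and NR4A1, and the sources used here do not name the test behind them.

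**Figure D2:**
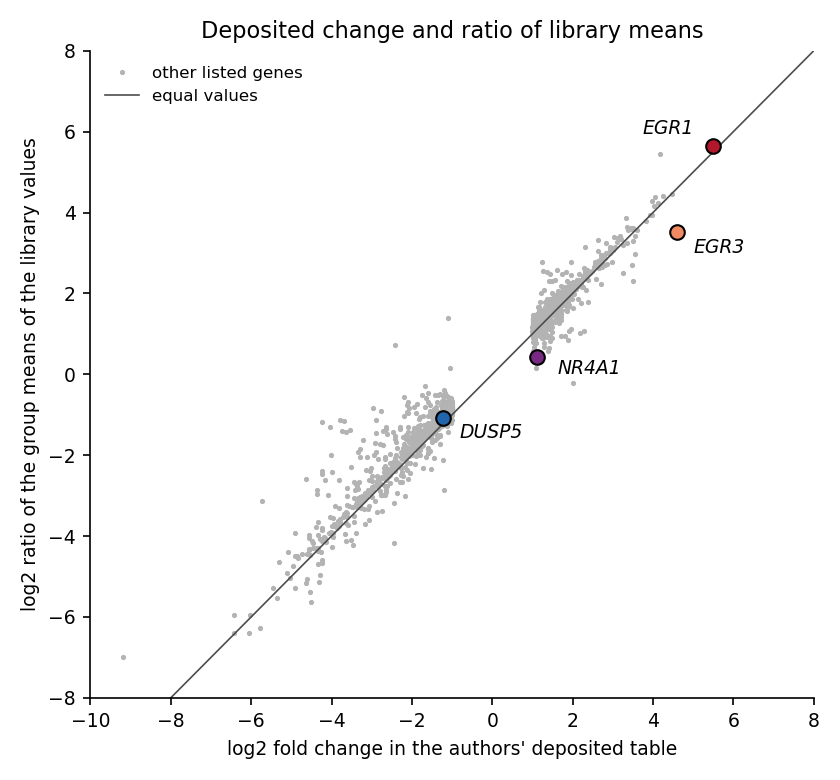
Log2 fold change in the authors' deposited table (horizontal) against the log2 ratio of the group means of library values (vertical), knockdown over control, for 1821 genes with both means above 0; the line marks equal values. EGR1 (5.50 and 5.64) and DUSP5 (-1.22 and -1.07) lie close to the line, EGR3 (4.59 and 3.52) and NR4A1 (1.11 and 0.43) below it.

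DUSP5 has a processed pseudogene, DUSP5P1 (ENSG00000183929), which moved against it. DUSP5P1 stood at 9.26, 8.87 and 8.60 in knockdown libraries 1, 2 and 3, against 2.33, 1.51 and 0.79 in control libraries 1, 2 and 3. Every knockdown value was well above every control value. Its mean was 8.91 ± 0.332 in the knockdown and 1.54 ± 0.771 in the control (SD, n = 3 each), a ratio of 5.77 (log2 fold change 2.01, SE 0.23, limma adjusted p = 2.19e-05). DUSP5P1 was named after its values were seen. Since reads could be shared between the copies, 60 coding bases of DUSP5 (32 to 91 of the coding sequence) are shown with the same stretch of DUSP5P1 (33 to 92 of its transcript), both from GENCODE 29 on GRCh38, with the 7 bases that differ in capitals.
DUSP5: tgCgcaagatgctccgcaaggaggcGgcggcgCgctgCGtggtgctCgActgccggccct
DUSP5P1: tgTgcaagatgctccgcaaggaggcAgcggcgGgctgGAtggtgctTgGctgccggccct
Of the 1139 bases of the pseudogene transcript, 1107 aligned to the DUSP5 transcript, and 952 of them were identical (86.0%). Over the 674 ungapped 60-base windows within the coding sequence, between 2 and 14 bases differed, with a median of 7. The longest identical run was 38 bases, and none of the 1090 stretches of 50 bases of DUSP5P1 occurred unchanged in a DUSP5 transcript. How the authors placed reads that match both genes is not stated, and its part in either value was not tested. In GENCODE 29, EGR1 and DUSP5 overlapped no other gene, while EGR3 and NR4A1 each overlapped 1 gene on the other strand. Neither of these was in the table, and whether counting used strand is not stated. Only GENCODE 29 was searched, so overlapping genes of other releases were not looked up.

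**Figure D3:**
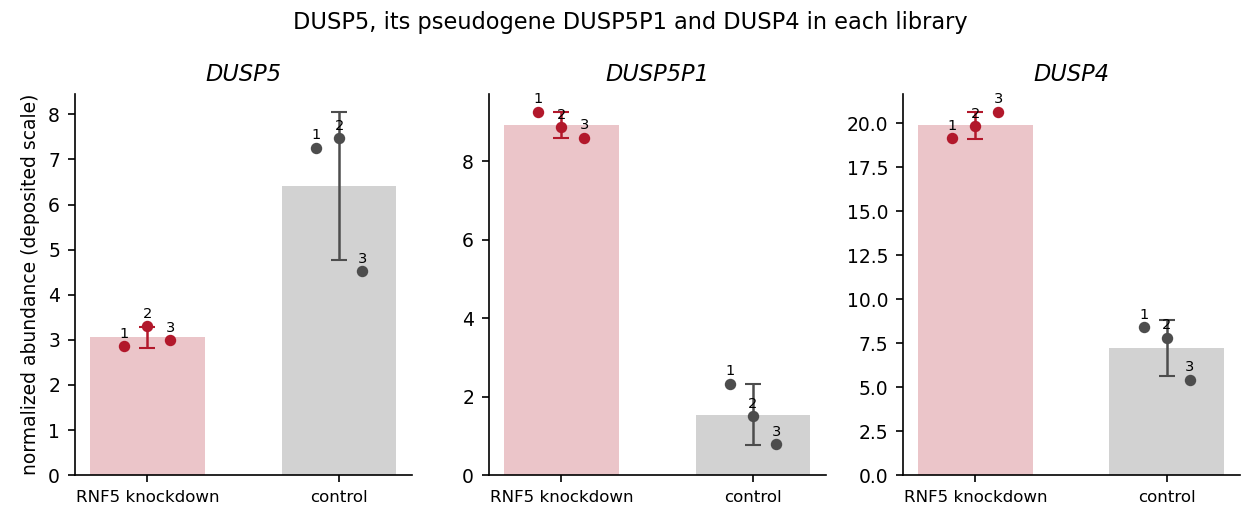
Normalized abundance of DUSP5, its pseudogene DUSP5P1 and the related phosphatase gene DUSP4 on the deposited scale (vertical axes from 0), with RNF5 knockdown libraries on the left and control libraries on the right; bars are means of 3 libraries, error bars SD and numbered points single libraries. DUSP5 was lower in every knockdown library, and DUSP5P1 and DUSP4 were higher.

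Other genes of the same pathways were looked up in 10 lists of 195 genes, of which 17 were in the authors' table. Of 43 immediate early genes, 9 were listed, the members included, and 8 could be tested. Of these, 3 rose, 4 fell and NR4A1 did not pass, against 55.7% higher and 42.0% lower over all tested genes. The median log2 fold change of the 8 was -0.30, and that of all tested genes was 0.73. With no filter on low values, which lets EGR3 in, these medians were 0.25 and -0.10, so the sign of the list's median rests on the filter. The 34 other genes of the list, FOS, JUN and EGR2 among them, have no values here.

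The early genes that rose beside EGR1 were DUSP4 and CCN2. DUSP4, a further nuclear MAP kinase phosphatase, stood at 19.17, 19.84 and 20.67 in knockdown libraries, against 8.41, 7.82 and 5.44 in control libraries (log2 fold change 1.36, limma adjusted p = 8.33e-05). DUSP4 and DUSP5 were the listed members of 26 dual-specificity phosphatase genes and moved in opposite directions. CCN2, which encodes a secreted matricellular protein, averaged 1.15 ± 0.121 in the knockdown and 0.270 ± 0.0954 in the control (SD, n = 3 each; log2 fold change 0.76, limma adjusted p = 0.000113). Like EGR1, it reached the filter through its knockdown libraries alone, so its test could hardly have failed.

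ATF3, GEM and CSRNP1 fell beside DUSP5. The stress-induced transcription factor gene ATF3 stood at 57.30, 58.35 and 48.31 in knockdown libraries, against 218.45, 202.24 and 106.50 in control libraries (log2 fold change -1.60, limma adjusted p = 0.000115). GEM, which encodes a small GTP-binding protein, averaged 1.15 ± 0.331 in the knockdown and 3.20 ± 0.435 in the control (SD, n = 3 each; log2 fold change -0.97, limma adjusted p = 0.000382). CSRNP1, a nuclear protein gene induced by AXIN1, averaged 2.44 ± 0.240 in the knockdown and 5.91 ± 1.72 in the control (SD, n = 3 each; log2 fold change -0.98, limma adjusted p = 0.0013). All listed early genes except NR4A1 had groups that did not overlap, near the 93.2% of all listed genes.

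Of 22 ERK feedback and output genes, 4 were listed. DUSP4 rose, DUSP5 fell, and ETV5, an ETS factor gene downstream of ERK, fell to 1.73 ± 0.435 in the knockdown, against 3.70 ± 1.14 in the control (SD, n = 3 each; log2 fold change -0.77, limma adjusted p = 0.00466). SPRY3, of the sprouty family of receptor kinase inhibitors, was too low to test, at 0.83, 1.18 and 1.19 in knockdown libraries, against 0.53, 0.26 and 0.29 in control libraries. Of 40 MAP kinase cascade genes, 2 were listed and both rose, where 55.7% of all tested genes passed as higher. The list left out MAPK6 and MAPK15, which were in the table and lower in the knockdown. Their log2 ratios of means were -0.95 and -4.12. MAP2K6, a kinase that activates p38 kinases, averaged 2.93 ± 0.119 in the knockdown and 0.987 ± 0.119 in the control (SD, n = 3 each; log2 fold change 0.98, limma adjusted p = 0.000141). MAPK11, which encodes a p38 kinase, averaged 3.25 ± 0.674 in the knockdown and 0.783 ± 0.311 in the control (SD, n = 3 each; log2 fold change 1.25, limma adjusted p = 9.78e-05). In control libraries 1, 2 and 3 it stood at 0.64, 1.14 and 0.57. MAPK11 thus met the filter on low values mainly through its knockdown libraries, and its passing carries little weight.

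Regulators of the members and reported targets of EGR1 were mostly outside the table. Targets of the other members were not looked up. None of 16 genes of serum response factor, its partners and CREB was listed. The list left out CREB5, which was in the table and lower in the knockdown (log2 ratio of means -0.81). Of 20 cytoskeletal targets of serum response factor 1 was listed, FLNA, which encodes filamin A and rose by a log2 fold change of 1.52 (limma adjusted p = 0.000172). Over all tested genes 55.7% passed as higher. FLNA stood at 584.97, 601.57 and 279.03 in control libraries 1, 2 and 3, and without control library 3 its log2 fold change was 1.16. Of 7 genes of the EGR family and its NAB co-repressors only EGR1 and EGR3 were listed, and of 6 genes of the NR4A family and its RXR partners only NR4A1. Of 20 AP-1 and related factors 2 were listed and fell, ATF3 and BATF3 (log2 fold change -0.995, limma adjusted p = 4.75e-05). BATF3 reached the filter through its control libraries alone, so its test could hardly have failed. Of 25 reported EGR1 targets 2 were listed and both fell, the growth arrest gene GADD45A (log2 fold change -1.07, limma adjusted p = 0.000309) and the matrix protease gene MMP14 (-0.87, limma adjusted p = 0.00151). Over all tested genes 42.0% passed as lower, so 2 falling genes are no result about this list or the AP-1 list.

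**Figure D4:**
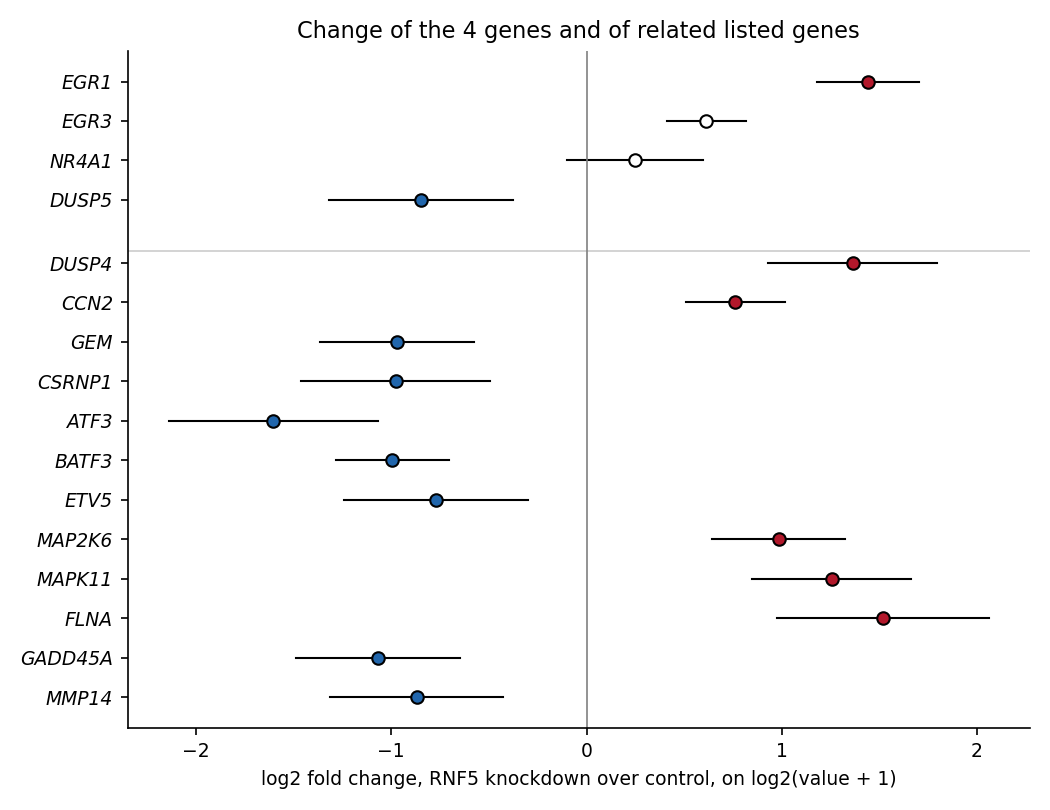
Log2 fold change of RNF5 knockdown over control on the log2(value + 1) scale (horizontal), with 95% limma intervals, for the 4 genes above the grey line and 12 related listed genes under it. Filled points passed the limma test (red higher, blue lower); the open point of NR4A1 did not pass (0.25), and that of EGR3 (0.61) is from the fit with no filter on low values.

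The genes with the most similar profile over the 6 libraries were found by the smallest root mean square difference of centred log2(value + 1) values. Only genes with a symbol that passed the filter on low values were compared, and EGR3 itself was below that filter. DUSP5 had the closest neighbours, GAB2 (0.0189), GALM (0.0501) and CDR2 (0.0535). For EGR1 they were MT-CO3 (0.0643), CENATAC-DT (0.0654) and GLYCTK (0.0704), and for EGR3 KCNMB2 (0.0717), SPATA6L (0.0742) and C2orf16 (0.0813). Of the 4 members NR4A1 lay farthest from its neighbours, at 0.172 from IQCN, 0.184 from ZNF491 and 0.204 from EXTL3-AS1. GAB2 stood at 16.36, 18.52 and 17.60 in knockdown libraries, against 36.49, 37.49 and 23.63 in control libraries, with control library 3 lowest as for DUSP5. That library was the lowest control in 510 of the 720 genes whose mean reached 5 in either group, so this is not particular to GAB2 and DUSP5. The scale compresses low genes, so EGR1, with a ratio of 49.8, lay beside genes with ratios between 2.63 and 4.45.

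Of 11 plasma cell markers, SDC1 and CD28 were listed and both rose, where 55.7% of all tested genes passed as higher. The other 9 have no values here. None of the 10 T and NK cell markers and none of the 8 erythroid and platelet markers of the fixed lists was in the table. Only these lists were looked up, and the table held other genes of such cells, the globin gene HBD among them. Of 10 fibroblast markers, COL1A1 and SPARC were listed and their summed abundance was 0.07 to 0.68 in knockdown libraries, against 8.42 to 24.88 in control libraries. SPARC stood at 0 to 0.24 in knockdown libraries and made up most of the sum in control libraries, at 7.70 to 24.29, and COL1A1, too low to test, stood at 0.07 to 0.44 in knockdown libraries and at 0.47 to 0.72 in control libraries. CD33, of 10 myeloid markers, stood at 0.61 to 1.10 in knockdown libraries and at 0.07 to 0.55 in control libraries. CLDN4, of 8 epithelial markers, stood at 1.29 to 1.48 in knockdown libraries and at 1.85 to 3.17 in control libraries. Of 9 B cell markers, BLK and CIITA rose, and BLNK, which reached the filter through its control libraries alone, fell. The part of such cells in the values of the 4 genes was not tested.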

How the data were processed

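RNA of 6 LP-1 libraries, 3 with RNF5 depleted and 3 with a non-target control, was grouped by the labels. Bowtie 0.12.2 and the build hg19 are named, without their step, per the submitters' processing notes. The values per library deposited by the authors are a normalized signal of unstated scale, with 2 decimals. The fold ratio and its log2 value deposited by the authors are knockdown over control, and the p-value deposited by the authors comes from a test that no header names.

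From the values, limma 3.58.1 in R 4.3.3 was run on log2(value + 1), with the trend option of its empirical Bayes step, over 1290 genes with at least 1 in 3 libraries (587 left out), with Benjamini-Hochberg adjustment and the group as the only term. The selection of genes by the authors makes these p-values no independent evidence, and the depth is unknown. Members, lists and tests were chosen with earlier results of these data known. Named genes were the 4 members, RNF5, up to 12 list genes with the smallest p and 3 profile neighbours per member. Other genes were named from the fixed lists of markers and pathways, or, for DUSP5P1, MAPK6, MAPK15, CREB5 and HBD, after their values were seen. Sequences came from RefSeq (GRCh38.p14) and GENCODE 29, aligned with Biopython 1.88. Alternatives covered the pseudocount, the filter, the trend, scaling, the replicate block and leaving out each library. No coordinates of hg19 were used.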

Additional observations from a re-analysis of the deposited data

How the results depend on the processing

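EGR1 and DUSP5 passed and NR4A1 did not pass under each of the 12 alternatives that could be run for them, and no member changed direction. EGR1 entered the fit through its knockdown libraries alone, so its passing says nothing about stability. The log2 fold changes ranged from 1.33 to 3.81 for EGR1 (limma adjusted p from 1.29e-20 to 5.84e-05), from 0.14 to 0.39 for NR4A1 (0.0919 to 0.416) and from -1.05 to -0.74 for DUSP5 (0.000325 to 0.0134). The 1.29e-20 came from the replicate block alone, and the next lowest limma adjusted p for EGR1 was 1.38e-06. The SE for EGR1 was larger with the block (0.15) than in the main fit (0.12), so that p is no sign of stronger evidence. EGR3, taken from fits with no filter, was at 2.29 with a pseudocount of 0.1 and at 1.01 with a pseudocount of 0.5, against 0.61 with 1. After scaling the knockdown libraries down by their median excess over the folds of the authors (0.17 in log2), the values were 1.33 for EGR1, 0.55 for EGR3, 0.14 for NR4A1 and -0.97 for DUSP5. Leaving out 1 library gave 1.37 to 1.5 for EGR1, 0.54 to 0.67 for EGR3, 0.16 to 0.34 for NR4A1 and -1.05 to -0.74 for DUSP5. The number of genes that passed was 1260, and 1235 to 1262 with 1 library left out. Under a filter of at least 5 in 3 libraries it was 654 of 660 tested, fewer because fewer genes were tested, and none of the 4 members could be tested there. With no filter it was 1787.

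Same-numbered libraries did not deviate together (correlations of -0.16, -0.07 and -0.08 for replicates 1, 2 and 3), and 0 of 6 libraries correlated best with its own number. No pairing by number was thus visible in these values. The labels do not say whether same-numbered libraries were prepared together. With the replicate block 1272 genes passed, and the log2 fold changes of EGR1 (1.44), EGR3 (0.61), NR4A1 (0.25) and DUSP5 (-0.85) were as without it, with adjusted p = 0.21 for NR4A1 in limma. The unknown depth and the 2 decimals limit what can be said of EGR1 and EGR3 in the control.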
